A study of Mus musculus with 2 samples.

Results

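The circadian clock genes described here are *Per1*, *Per2*, *Per3*, *Cry1*, *Cry2*, *Arntl*, *Nr1d1*, *Nr1d2*, *Dbp* and *Tef*, 10 of the 37074 distinct gene names on the array. They were found by matching the symbol printed beside each probe, with control spots left out, a rule that uses no signal, although the 10 genes were picked for description with earlier results of these data known. The array carries 25 probes for them. The arrays were 2 single-colour Agilent arrays, 1 for each genotype, hybridised with striatal RNA of MPTP-treated male mice. The striatum is the forebrain target of the midbrain dopaminergic neurons, and MPTP is a toxin that damages those neurons and their terminals.

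The WT array holds the RNA of 2 mice whose strain is labelled C57BL/6J, and the Cx30 KO array holds that of 2 mice whose strain is labelled Cx30-LacZ. Cx30 KO mice lack connexin 30, a gap junction protein of astrocytes, in all their cells and from conception, so that the loss is neither inducible nor confined to the brain. The methods describe both genotypes as homozygous offspring of heterozygous parents. By the methods, the line was started with sperm of heterozygous Cx30 KO males and C57BL/6 oocytes. Mice of both groups were 8 weeks old, were given 4 doses of 20 mg/kg MPTP, 2 h apart, with the striatum taken on day 1 after the last dose. They were kept under a cycle of 12 h light and 12 h dark, but the hour at which the tissue was taken is not given in the sources used here. With 1 pool for each genotype, the genotype, the hour of collection and the state of single mice cannot be told apart in any value below, and no test between the groups was possible. Saline-treated mice were not analysed here, so that every ratio compares the genotypes after MPTP.

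The mammalian clock is a feedback loop of transcription. In its positive limb, the protein made from *Arntl*, also called BMAL1, pairs with CLOCK or NPAS2 and binds E-box sequences in the promoters of the *Per* and *Cry* genes, whose products form the negative limb and block that pair. A second loop joins the E-box-driven *Nr1d1* and *Nr1d2*, which encode the repressors REV-ERBα and REV-ERBβ, to *Arntl*, which they silence through RRE sequences, whereas *Dbp* and *Tef* encode activators that bind D-box sequences. Transcripts driven by E-boxes and that of *Arntl* therefore peak at different times of day in most tissues, the striatum included, and *Per1* and *Per2* are also induced acutely by neuronal activity, glucocorticoids and other signals.

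The promoters of these genes are shown for the short sequences through which the loop is wired. RefSeq promoters of the GRCm38.p6 build, from 250 bases before to 50 bases after a start site, were available for 9 of the 10 genes, with *Per2* missing and with 2 promoters each for *Per1*, *Arntl* and *Tef*. Both strands were searched for the E-box CACGTG, the E-box-like CACGTT, the D-box forms TTATGTAA, TTATGCAA and TTACGTAA, the RRE core TAGGTCA and the CRE TGACGTCA, none of which contains another. Each stretch reads 5′ to 3′ on the strand of its gene, with the matches in capitals, and AACGTG is the E-box-like sequence read from the other strand.
Per1, chr11:69098763-69098948, plus strand: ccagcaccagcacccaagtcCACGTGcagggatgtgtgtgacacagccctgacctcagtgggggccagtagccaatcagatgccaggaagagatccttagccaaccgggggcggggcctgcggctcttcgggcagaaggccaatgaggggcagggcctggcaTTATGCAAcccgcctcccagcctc
Per3, chr4:151044796-151044890, minus strand: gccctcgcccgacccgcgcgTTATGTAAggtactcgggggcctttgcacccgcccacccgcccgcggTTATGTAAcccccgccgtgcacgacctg
Cry1, chr10:85185089-85185153, minus strand: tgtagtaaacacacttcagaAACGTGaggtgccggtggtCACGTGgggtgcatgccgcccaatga
Cry2, chr2:92434210-92434255, minus strand: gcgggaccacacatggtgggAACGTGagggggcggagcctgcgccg
Arntl, chr7:113207530-113207559, plus strand: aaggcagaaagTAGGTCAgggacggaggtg
Nr1d1, chr11:98775380-98775425, minus strand: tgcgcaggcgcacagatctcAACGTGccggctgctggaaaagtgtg
Tef, first promoter, chr15:81802526-81802571, plus strand: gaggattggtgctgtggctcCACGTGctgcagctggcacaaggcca
Tef, second promoter, chr15:81811256-81811301, plus strand: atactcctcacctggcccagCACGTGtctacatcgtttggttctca

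At least 1 of these sequences was found in 7 of the 9 genes searched. Of the 12 promoters searched, 4 held the E-box, 3 the E-box-like sequence, 2 a D-box and 1 the RRE core. The percentages below are shares of promoters, and the share of all promoters with any of these sequences is not given. The E-box lay in promoters of *Per1*, *Cry1* and *Tef*, against 7.15% of all 32851 promoters in the table. The E-box-like sequence lay in those of *Cry1*, *Cry2* and *Nr1d1*, against 4.68% of all promoters. A D-box lay in those of *Per1* and, at 2 places, *Per3*, against 1.78%. The RRE core was found in *Arntl* alone among the 9 genes searched, 31 bases after the start site of 1 of its promoters, against 2.61% of all promoters. The CRE, held by 1.79% of all promoters, was in none of theirs, and the windows of *Nr1d2* and *Dbp* held no match. A match describes these letters only and says nothing about whether a factor was bound in the striatum.

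Levels are processed signals, the scanner software's background-subtracted spot intensities in arbitrary units, and the ± beside them is the error that the software gives for a spot. For ratios, signals were divided by the 75th percentile of their array, 401.2 for WT and 381.8 for Cx30 KO, and the log2 ratio is Cx30 KO minus WT, with negative values where Cx30 KO was the lower of the pair. Probes well above background numbered 32019 for WT and 32961 for Cx30 KO, of 56605. By the file headers both arrays lay on 1 slide. Of the probes printed in 10 spots within an array, 298 were well above background on both arrays. Their log2 ratio had a median SD of 0.06 between spots, while different probes of a gene, detected in the same way, had a median SD of 0.14 (7147 genes). For the brightest probes of the clock genes, the error given by the software amounted to about 0.20 on the log2 ratio scale. None of these errors covers the variation between mice. A gene is given by the brightest of its probes, and signals of different probes cannot be set against each other. Probe positions are those of the mm9 build given in the files.

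*Gjb6*, which encodes Cx30, was 15.4-fold lower in Cx30 KO, with 1788 ± 179 on the WT and 111 ± 11.6 on the Cx30 KO array (chr14:57742226-57742285), in keeping with the labels. *Nr1d2*, the only clock gene on the same chromosome, lies 38.7 Mb away from it.

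All 10 clock genes were well above background on both arrays, with 24 of their 25 probes, and a second *Per1* probe was above it on neither. The clock genes separated into 2 lower and 8 higher in Cx30 KO. *Arntl* and *Per2* were lower, with log2 ratios of −0.77 and −0.51, while *Per3*, *Per1*, *Nr1d2*, *Cry1*, *Cry2*, *Tef*, *Nr1d1* and *Dbp*, in ascending order, ran from 0.07 to 0.42. At the ratio limits of the study, at least 1.5 or at most 0.66, *Arntl* was past the lower limit and 0 genes were past the upper, so that 10% of the clock genes were past a limit. Of the 22008 genes well above background on at least 1 array, 5.63% were past the lower limit, 5.61% were past the upper and 11.2% were past either, so the share of clock genes past a limit was close to that of the array as a whole. The median log2 ratio of the 10 genes was 0.26, against 0.03 for all genes, of which 54.4% were higher in Cx30 KO.

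**Figure D1:**
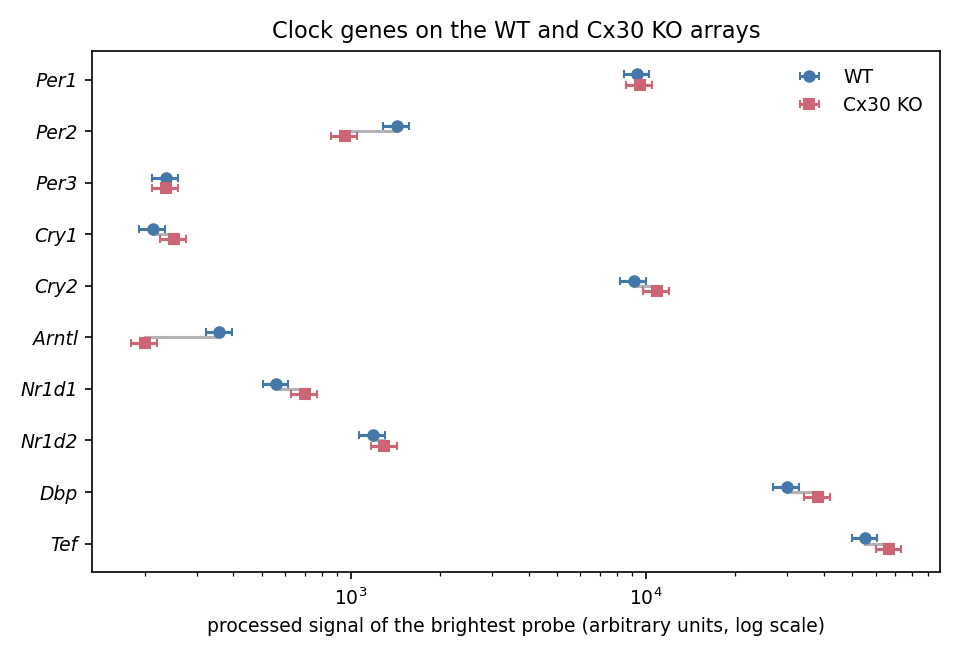
Processed signal of the brightest probe of each of the 10 clock genes (log axis, arbitrary units) on the WT array (blue circles) and the Cx30 KO array (red squares), before scaling, with bars for the error given by the scanner software. The bars of the arrays separate for Arntl, Per2, Nr1d1 and Dbp, and only Arntl and Per2 lie to the left in Cx30 KO by more than their bars, with Arntl at 358 on the WT and 200.2 on the Cx30 KO array.

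In the negative limb, the *Per* genes did not move together. *Per1*, a light- and activity-inducible repressor of the loop, had 9335 ± 934 on the WT and 9533 ± 953 on the Cx30 KO array (chr11:68923364-68923423). Its log2 ratio was 0.10, within the error that the software gives for a log2 ratio. It was also inside the range of probes with similar signal, whose 5th and 95th percentiles were −0.33 and 0.34. *Per1* thus did not stand apart from transcripts of its brightness.

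*Per2*, whose product is rate-limiting for the negative limb, had 1429 ± 143 on the WT and 952 ± 95.3 on the Cx30 KO array (chr1:93312595-93312654). Its log2 ratio of −0.51 was below the 5th percentile of −0.46 for probes of similar signal. The second *Per2* probe (chr1:93336538-93336597) was dimmer and had 75 on the WT and 38.1 on the Cx30 KO array, with a log2 ratio of −0.90. *Per2* was therefore lower at each of its 2 probes, past the lower limit at the dimmer of them and short of it at the brighter. The log2 ratio of *Per1* exceeded that of *Per2* by 0.62.

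*Per3*, the third period gene, is an output of the loop that most models treat as dispensable for rhythm. It had 236 ± 24 on the WT and 236 ± 23.9 on the Cx30 KO array at its brightest probe (chr4:150378473-150378532), a log2 ratio of 0.07. A second probe had 183 on the WT and 275 on the Cx30 KO array, a log2 ratio of 0.65, and the dimmest probe had 61.4 and 61.1, a log2 ratio of 0.07. The probes of *Per3* thus disagreed, with an SD of 0.34 between their log2 ratios, against a median of 0.14 for genes with several probes. On the WT array the scanner software marked the spots of its 2 brighter probes as not located.

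The cryptochromes *Cry1* and *Cry2* encode the main repressors of CLOCK and BMAL1, and both genes were higher in Cx30 KO. *Cry2* had 9078 ± 908 on the WT and 10870 ± 1087 on the Cx30 KO array (chr2:92243807-92243866), a log2 ratio of 0.33, and its other probes had 0.40 and 0.31. The 3 probes of *Cry2* agreed to an SD of 0.05, and the brightest was just inside the 95th percentile of 0.34 for probes of similar signal. *Cry1* had 213 ± 21.7 on the WT and 251 ± 25.4 on the Cx30 KO array (chr10:84647094-84647153), a log2 ratio of 0.31 at a probe whose spot was not located on the WT array. The second, dimmer *Cry1* probe had 0.10, with its spot not located on the Cx30 KO array, so the size of its difference depended on the probe.

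In the positive limb, *Arntl* encodes the partner without which the clock stops, and it had the lowest log2 ratio of the 10 genes. It had 358 ± 36.1 on the WT and 200.2 ± 20.5 on the Cx30 KO array (chr7:120456978-120457037), a ratio of 0.588 and a log2 ratio of −0.77, below the 5th percentile of −0.52 for probes of similar signal. A second probe had 229 on the WT and 172 on the Cx30 KO array, a log2 ratio of −0.34, and the dimmest had 188 and 121, a log2 ratio of −0.56. *Arntl* was lower at all 3 probes, but only the brightest was past the lower limit, and the mean of the 3 was −0.56.

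The REV-ERB genes *Nr1d1* and *Nr1d2*, which encode the repressors of *Arntl*, were higher at their brightest probes. *Nr1d1* had 558 ± 56.0 on the WT and 697 ± 69.8 on the Cx30 KO array at its single probe (chr11:98630526-98631028), a log2 ratio of 0.39, inside the 95th percentile of 0.41 for probes of similar signal. *Nr1d2* had 1184 ± 119 on the WT and 1299 ± 130 on the Cx30 KO array (chr14:19036568-19036627), a log2 ratio of 0.20, and its other probes had 0.05 and −0.06. The difference of *Nr1d2* was thus about as large as the error that the software gives for a log2 ratio, and those of its other probes were smaller than that error. The spot of the probe with −0.06 was not located on the WT array.

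*Dbp* and *Tef*, members of the PAR bZIP family, carry the clock to D-box target genes, and *Dbp* is among the transcripts with the widest daily swing in most tissues. *Dbp* had 30040 ± 3004 on the WT and 38270 ± 3827 on the Cx30 KO array (chr7:52965461-52965520), a ratio of 1.34 and the highest log2 ratio of the 10 genes, 0.42. Its second probe had 27046 on the WT and 36268 on the Cx30 KO array, a log2 ratio of 0.49, which put both probes of *Dbp* above the 95th percentile of 0.29 for probes with signals like that of the brightest. Neither was past the upper limit.

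*Tef* had 55270 ± 5527 on the WT and 66640 ± 6664 on the Cx30 KO array (chr15:81657221-81657280), a log2 ratio of 0.34, above the 95th percentile of 0.26 for probes of similar signal. Its second probe had 0.26 and its dimmest, whose spot was not located on the Cx30 KO array, had 0.41. The other had 380 on the WT and 613 on the Cx30 KO array, a log2 ratio of 0.76 that was past the upper limit. All 4 *Tef* probes were higher in Cx30 KO, with an SD of 0.22 between them.

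**Figure D2:**
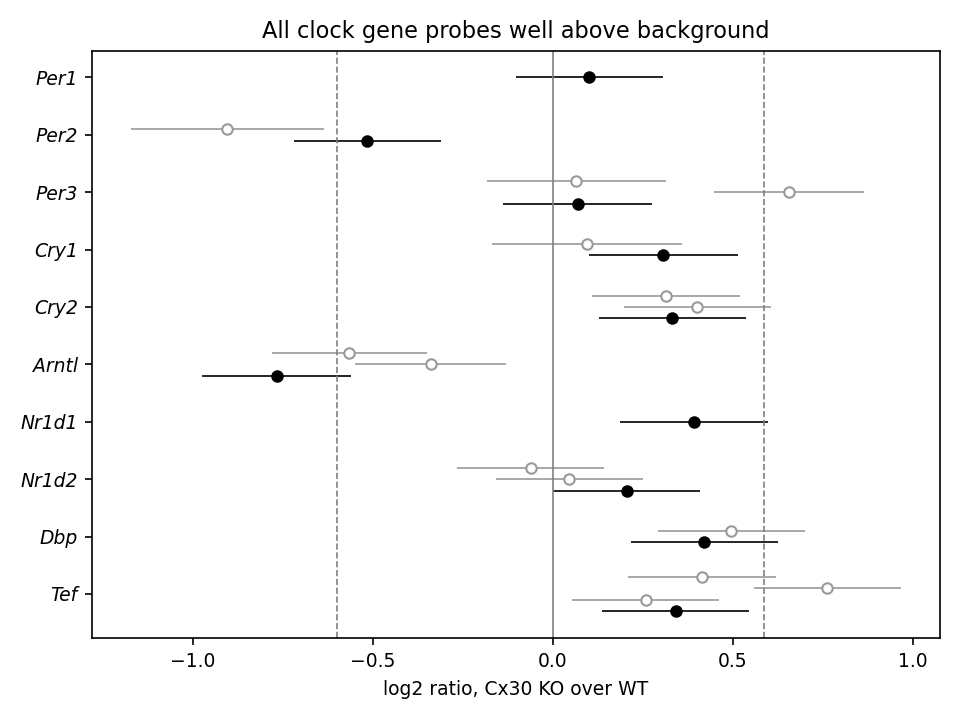
Log2 ratio of Cx30 KO over WT for the 24 clock gene probes that were well above background on both arrays, with filled points for the brightest probe of a gene, open points for its other probes, bars for the error given by the scanner software and dashed lines at the ratio limits of 1.5 and 0.66. All probes of Arntl and Per2 lie left of 0, those of Nr1d2 fall on both sides of it, and those of the other genes lie right of it. Among the latter, the probes of Per3 and Tef spread more widely than those of Cry1, Cry2 and Dbp.

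Of the 24 probes, 18 were higher and 6 were lower in Cx30 KO, and probes of 1 gene share its transcripts and are not independent. In the order of the brightest probes, *Arntl* and *Per2* were 0.25 apart on the log2 ratio scale and *Per2* was followed by a gap of 0.58 to *Per3*. From *Per3* to *Dbp* each gene was about 0.10 or less from the next, below the error of about 0.20 that the software gives for a log2 ratio. Neighbours in this stretch thus did not differ beyond that error. The gaps from *Per1* to *Nr1d2* and from *Nr1d2* to *Cry1*, 0.10 each, did exceed the median SD of 0.06 between spots. *Dbp* exceeded *Arntl* by 1.19 and *Per2* by 0.94. At their brightest probes, *Per2*, *Arntl*, *Dbp* and *Tef* of the 10 genes were outside the range from the 5th to the 95th percentile of the 1000 probes nearest in signal. That range holds 90% of those probes by construction. The dimmer probes of *Per2* and *Dbp* were outside their own ranges too. The *Arntl* probes with −0.34 and −0.56 were inside theirs, the latter only just. The *Tef* probes with 0.26 and 0.41 were also inside, whereas the *Tef* probe with 0.76 was outside.

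**Figure D3:**
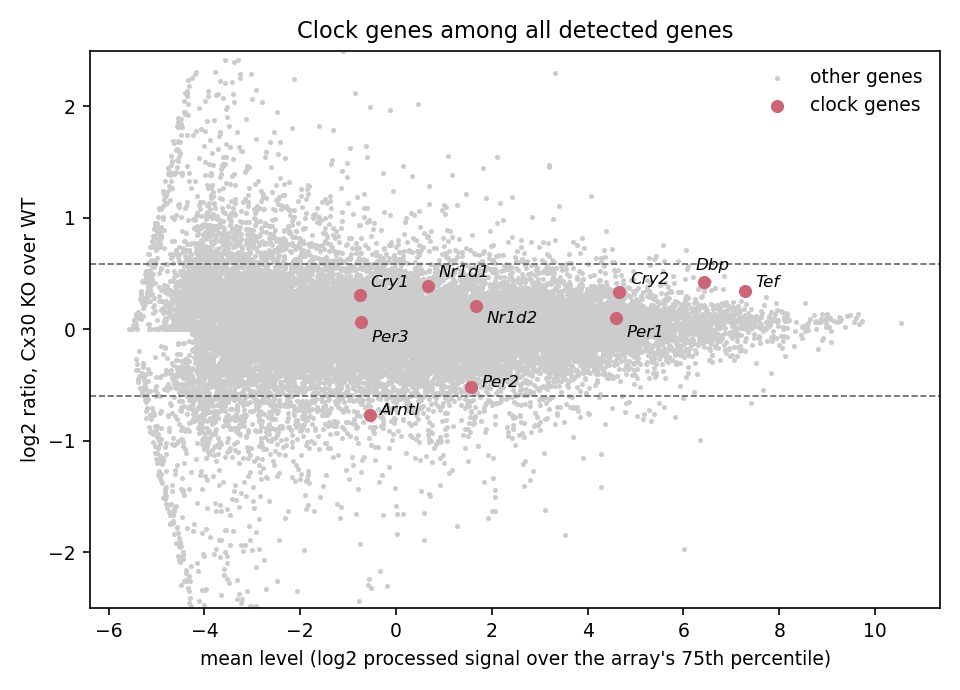
Log2 ratio of Cx30 KO over WT against mean level (log2 signal over the 75th percentile of the array) for the 22008 genes detected on either array, with the clock genes in red and dashed lines at the ratio limits. Arntl lies below the lower limit and Per2 just above it, Dbp and Tef lie near the upper edge of the narrow cloud at high signal, and 55 genes are outside the axis.

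A comparison of the limbs gave no single direction. The 5 negative-limb genes had a median log2 ratio of 0.10, with 4 higher and *Per2* lower. The positive limb, taken as *Arntl* with the genes of its CLOCK-type partners, had a median of 0.13, which left a difference of −0.03 between the limbs. This difference changed sign, to 0.25, when each gene was given the mean of its probes. The positive limb was itself split, because *Npas2* and *Arntl*, whose products pair with each other, were past opposite limits. *Npas2* had 117 ± 12.7 on the WT and 209 ± 21.4 on the Cx30 KO array, a ratio of 1.88 and a log2 ratio of 0.91, at a single probe whose spot was not located on the WT array, and it exceeded *Arntl* by 1.67. *Clock*, the other partner, had 1873 on the WT and 1957 on the Cx30 KO array at its brightest probe, a log2 ratio of 0.13, but its other probes had −0.11 and −0.19. A list of 7 E-box-driven genes was set without the promoter search and left out *Cry1* and *Cry2*, which are E-box targets too and were both higher. Of its genes, *Per1*, *Per2*, *Per3*, *Nr1d1*, *Nr1d2*, *Dbp* and *Tef*, 6 were higher and *Per2* was lower, with a median of 0.20 over the 7.

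Beyond the 10 genes, a list of 21 other clock pathway genes was measured in full, and all 21 were well above background. Of these, 9 were higher and 12 were lower in Cx30 KO, *Npas2* was past the upper limit and 0 genes were past the lower, with a median of −0.02 against 0.03 for all genes. The 3 E-box-driven repressors were each higher at their brightest probes, with log2 ratios of 0.20 for *Bhlhe40*, 0.25 for *Bhlhe41* and 0.50 for *Ciart*, the last of which had 400 on the WT and 539 on the Cx30 KO array. The second probe of *Bhlhe41* was lower, with −0.15. The RORs activate *Arntl* through the RRE, opposite to the REV-ERBs, and *Rora* had a log2 ratio of −0.26, with 0.04 at its second probe, and *Rorb* had −0.02. *Hlf*, the third PAR bZIP gene, had −0.01, unlike *Dbp* and *Tef*, and *Nfil3*, which encodes a D-box repressor, had −0.13. Among the kinases and ubiquitin ligases that set the stability of PER and CRY proteins, *Csnk1e* had 0.32 and the other 6 were below 0 at their brightest probes, among them *Csnk1d* with −0.02, *Gsk3b* with −0.07, *Fbxl21* with −0.18, *Fbxw11* with −0.28 and *Btrc* with −0.44. Other probes well above background had the opposite sign, with 0.35 and 0.10 for *Csnk1d*, 0.15 and 0.26 for *Fbxw11*, 0.14 for *Fbxl21*, 0.04 for *Btrc* and −0.01 for *Csnk1e*. Of the further output genes, *Usp2* had 0.37, *Wee1* 0.23, *Noct* 0.08 and *Nampt* −0.22, while the other *Noct* probes had −0.19 and −0.25. The spot of the *Fbxl21* probe with 0.14 was located on neither array. Those of *Rorb*, *Nampt* and the *Btrc* probe with 0.04 were not located on the Cx30 KO array.

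**Figure D4:**
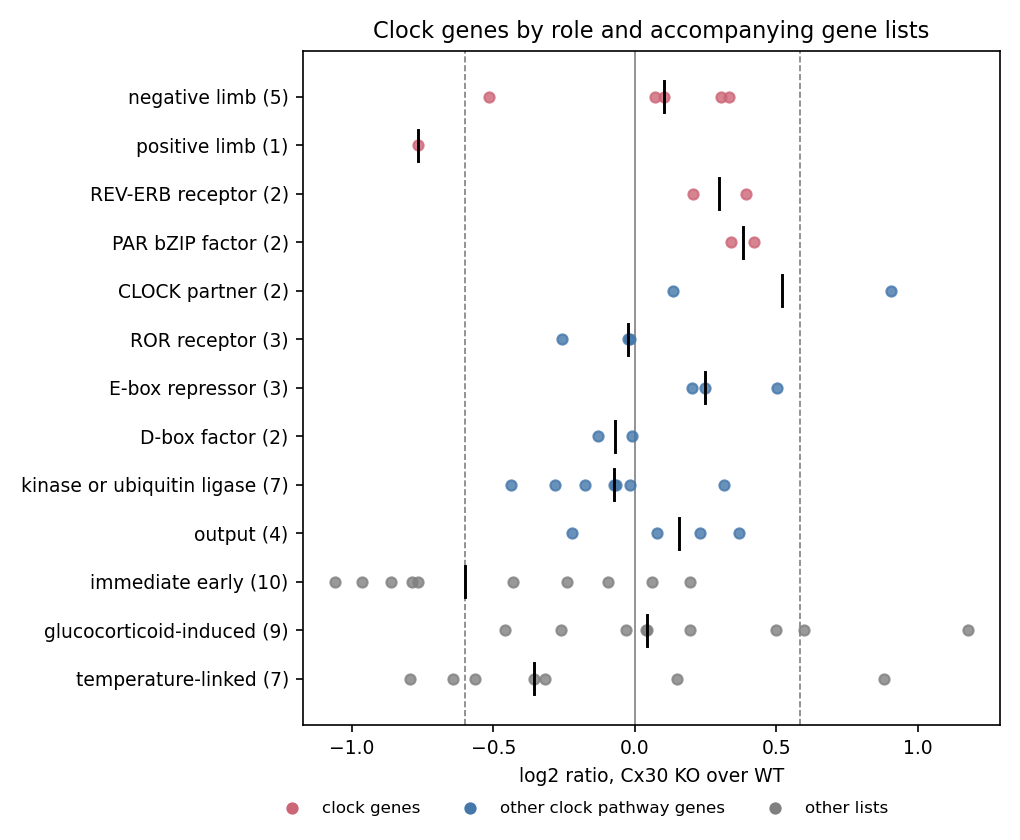
Log2 ratio of Cx30 KO over WT by role, with 1 point for each gene at its brightest probe, a black bar for the median of each role, the number of genes in parentheses and dashed lines at the ratio limits. Red points are the 10 clock genes, blue points the 21 other clock pathway genes and grey points the immediate early, glucocorticoid-induced and temperature-linked lists. Arntl and Per2 are the clock genes left of 0, Npas2 is the pathway gene farthest to the right, and 8 of 10 immediate early genes lie left of 0.

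Signals that are known to act on *Per* genes or to follow body temperature were listed alongside, and their part in the clock gene values was not tested. Of 10 immediate early genes, which neuronal activity induces, 2 were higher and 8 were lower in Cx30 KO, 5 of them past the lower limit, with a median of −0.60. *Egr1*, with the brightest probe of the list, had 7596 on the WT and 4185 on the Cx30 KO array, a log2 ratio of −0.79, and the lowest log2 ratios were −1.06 for *Egr2* and −0.96 for *Nr4a1*. Of 9 glucocorticoid-induced genes, 6 were higher and 3 were lower, with a median of 0.04, and *Cdkn1a*, with 1.18, and *Fkbp5*, with 0.60, were past the upper limit. *Ddit4*, with the brightest probe of that list, had 0.04. Of 7 temperature-linked genes, 2 were higher and 5 were lower, with a median of −0.36. The cold-inducible *Cirbp* was past the upper limit, with 6162 in WT, 10807 in Cx30 KO and a log2 ratio of 0.88, and all 3 of its probes were higher, from 0.66 to 0.88. *Rbm3*, the other cold-inducible gene of the list, had 0.15. The heat shock genes *Hspa1b* and *Hspa1a* were past the lower limit, with −0.80 and −0.64, and *Hspa8*, with the brightest probe of the list, had −0.57.

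The cell types of the pools were followed with marker genes, and in bulk tissue fewer cells of a type and less RNA per cell cannot be told apart. A summed signal adds the brightest probes of a list, is led by the brightest of them, and is given only to set 1 array against the other, not as an abundance. All 9 striatal neuron markers were well above background on both arrays, with a median log2 ratio of −0.16, none (0) past a limit, a summed signal of 491715 on the WT and 485627 on the Cx30 KO array, and *Penk* as the brightest probe. The 6 markers of cortical excitatory neurons were all higher in Cx30 KO, 5 of them past the upper limit, with a median of 2.14 when genes seen in Cx30 KO alone were held at their lower bound. Their summed signal was 175 on the WT and 1391 on the Cx30 KO array, *Tbr1*, the brightest probe of the list in WT, had 78.6 there and 423 in Cx30 KO, and *Slc17a7*, *Neurod6* and *Emx1* were among those not well above background in WT. At their brightest probes, all 7 oligodendrocyte markers were lower, 5 past the limit, with a median of −0.73 and summed signals of 157109 and 93330, although 1 dimmer probe each of *Mbp*, *Mag* and *Cnp* was higher, with 0.12, 0.24 and 0.19. The spots of these *Mag* and *Cnp* probes were located on neither array. Of 7 microglial markers, 6 were lower and 4 past the limit, with a median of −0.67 and summed signals of 88317 and 81765, most of which came from *Itgam*, the brightest probe and the only marker of the list that was higher, with 60045 and 62438. A second *Itgam* probe had 21.6 on the WT array, where it was not well above background, and 22.2 on the Cx30 KO array. Its spot was located on neither array. A second *Csf1r* probe had 0.10, opposite to its brightest. Of 6 astrocyte markers, 4 were higher and 2 were lower, *Aqp4* alone past the lower limit, though 1 of its dimmer probes had 0.02, with a median of 0.02, summed signals of 29067 and 26852 and *Slc1a2* as the brightest probe. *Gja1* and *Sox9* counted as higher with 0.03 each, but a second *Sox9* probe had −0.10 and other *Gja1* probes had −0.39, −0.02 and 0.60. The *Gja1* spot with −0.39 was not located on the Cx30 KO array, nor the spot with 0.60 on the WT array. Of 5 endothelial markers, 2 were higher and 3 were lower, *Flt1* alone past the lower limit with −0.93, though its other probes had 0.52 and −0.15, with a median of −0.15, summed signals of 18565 and 15607 and *Ly6c1* as the brightest probe. Of 4 choroid plexus markers, 3 were well above background and *Kcnj13* was not. Of the 3, 1 was higher and 2 were lower, from −1.27 to 0.23, with a median of −0.58. *Ttr*, the brightest probe, was alone past the lower limit, with −1.27, and led the summed signals of 446 and 241. The spot of this *Ttr* probe was not located on the Cx30 KO array, and a second *Ttr* probe was well above background on neither array. Clock genes are expressed in all of these cell types, and the part of the cell mixture in their ratios was not tested.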

How the data were processed

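The authors hybridised Cy3-labelled striatal RNA, 1 pool of 2 mice for each genotype, to 2 Agilent arrays. The deposited processed signals are linear intensities, which the software had background-subtracted and detrended within each array. The file headers give Feature Extraction 10.7.1.1, whereas the submitters' processing notes give 9.5.1.1. Precision is limited by having 1 array a genotype. The authors also deposited a table of normalised intensities. Over its 56605 rows and both arrays, 99.991% of its values were within 1% of the quantile-normalised signals, so it served as an alternative only.

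Control spots and outlier spots were left out (48 in WT, 52 in Cx30 KO), log2 signals were averaged over the spots of a probe, and each array was centred on its 75th percentile. A probe counted as detected where the software marked 50% or more of its spots as well above background. No probe (0) was saturated. RefSeq gave 1897 probes a current symbol. A gene took its brightest such probe. For 1703 genes seen on 1 array only, the ratio is a bound. The study's ratio limits were used without its Z-score, whose probe set the methods do not name. The scripts were tested on simulated data.

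The genes and lists were chosen with earlier results of these data known. Named genes are the 10 clock genes, other pathway genes and cell markers that had the brightest probe, were undetected or alone past a limit. Some cell markers with probes of opposite sign are also named. Of the accompanying lists, the gene with the brightest probe and up to 2 past each limit are named. The rule fixed for the pathway list covered *Clock*, *Npas2* and genes past a limit, and naming the rest, *Rbm3* and the cell markers was decided after their values were seen. With 1 array for each genotype there was no test, no SD and no leaving out of a replicate. Python 3.11.15, pandas 2.3.3, R 4.3.3 and limma 3.58.1 were used. Some genes of the lists, though counted, are not reported here by name.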

Additional observations from a re-analysis of the deposited data

How the results depend on the processing

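No paired analysis was possible because each genotype has 1 array, and for the same reason no array could be left out. Under 8 alternatives (scaling by the median, quantile normalisation, normexp with quantile normalisation, the deposited value table, dim probes kept, detection required on both arrays, probes of a gene averaged, and a 2-fold limit for counts), 132 of 151 values kept their direction and moved by less than 0.06 on the log2 scale, the SD between spots, or, for counts, by at most 1.5 times, which for ratios near 0 can still be a large part of the value, and each of the 10 clock genes kept its sign, with 8 higher and 2 lower throughout. *Arntl* ranged from −0.81 to −0.56, *Per2* from −0.71 to −0.48, *Dbp* from 0.37 to 0.46, *Tef* from 0.28 to 0.44 and *Per3* from 0.01 to 0.26. The place of *Dbp* as the highest gene depended on the setting. *Nr1d1* was slightly above it with quantile normalisation (0.398 against 0.396), normexp (0.380 against 0.378) and the deposited value table (0.397 against 0.396). *Arntl* was −0.62 with normexp and −0.56 with the mean of probes, which is inside the lower limit of −0.60, and *Per2*, with −0.71, was then the gene past it. At the 2-fold limit 0 clock genes were past the lower limit and 0 other pathway genes past the upper. With the mean of probes, the negative-limb median was 0.20, the E-box-driven median 0.26, the difference between the limbs reversed to 0.25 and *Clock* reversed to −0.054. Over all genes, 1235 were past the upper and 1240 past the lower limit, against 358 and 566 with normexp, 3581 and 2654 without the filter, 376 and 430 at 2-fold, and 807 and 863 with detection on both arrays. The median of all genes stayed between −0.07 and 0.04. The cause of these differences was not tested. The error that the software gives for a log2 ratio was 0.20 at the brightest *Per2* probe and 0.27 at the dimmer one.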
